A study of Mus musculus with 14 samples.

Results

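10 genes that ERK signalling switches on, most of them encoding its inhibitors, were followed through normal liver and spontaneous liver tumours of the mouse. They are 3 dual-specificity phosphatases (Dusp4, Dusp5, Dusp6), 3 Sprouty genes (Spry1, Spry2, Spry4), 2 Sprouty-related genes (Spred1, Spred2) and 2 transcription factors of the PEA3 group (Etv4, Etv5). They were chosen by name, as 10 of 30436 features in the data, and each rests on 1 transcript in the deposited table. Expression was measured by RNA sequencing in 14 tissue samples of male mice of the inbred strain C3HeB/FeJ, in which liver tumours arise without treatment. All mice were 18 months old, had been looked over for tumours at 10 months of age, and were then injected on 5 days of each 28-day cycle for 6 cycles. The 4 tumours called Regress comprised Regress 1 and Regress 3, given temozolomide (TMZ, an alkylating drug, 31 mg/kg), Regress 2, given phosphate citrate buffer, and Regress 4, given the solvent DMSO. Of the 6 tumours called Grow, Grow 2, Grow 3 and Grow 4 had SAHA (suberoylanilide hydroxamic acid, a histone deacetylase inhibitor, 85 mg/kg) with TMZ (22 mg/kg), Grow 6 had SAHA alone (100 mg/kg), and Grow 1 and Grow 5 had DMSO. The 4 normal livers, Normal 1 to 4, had phosphate citrate buffer. How growth and regression were scored is not given in the labels. Nor do the labels say that each sample came from its own mouse, so the p-values cover no more than the spread among these 14, part of which may be technical.

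Growth factor receptors act through RAS, RAF and MEK to activate the kinase ERK, and ERK in turn raises the transcription of its own inhibitors. DUSP6 removes phosphate from ERK in the cytoplasm and DUSP5 does so in the nucleus, while DUSP4 is a nuclear phosphatase that also acts on other MAP kinases. Sprouty and SPRED proteins act further up, between the receptor and RAF, and SPRED1 does so by bringing the RAS inactivator neurofibromin to the membrane. ETV4 and ETV5 are ETS family transcription factors whose genes respond to FGF and ERK signalling. Because their transcripts follow ERK activity, these genes are widely read as an output of the pathway, and mutations that activate it are common in liver tumours of C3H mice.

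The promoters of Dusp6, Dusp5 and Spred1, the members called in tumours, are shown because ERK acts on such genes through ETS factors, which bind around GGAA, and through serum response factor, which binds CArG boxes. They are 300 bases each from RefSeq on the build GRCm38.p6, 250 before and 50 after the start of the gene, with GGAA on either strand (GGAA or TTCC) and CArG boxes in capitals; a CArG box can share bases with GGAA.
Dusp6: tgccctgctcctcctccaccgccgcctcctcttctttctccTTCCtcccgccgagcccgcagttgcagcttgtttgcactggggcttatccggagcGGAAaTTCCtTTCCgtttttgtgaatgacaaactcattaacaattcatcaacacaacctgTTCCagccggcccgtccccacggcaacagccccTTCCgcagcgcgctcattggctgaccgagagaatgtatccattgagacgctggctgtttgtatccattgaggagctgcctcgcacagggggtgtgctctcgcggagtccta
Dusp5: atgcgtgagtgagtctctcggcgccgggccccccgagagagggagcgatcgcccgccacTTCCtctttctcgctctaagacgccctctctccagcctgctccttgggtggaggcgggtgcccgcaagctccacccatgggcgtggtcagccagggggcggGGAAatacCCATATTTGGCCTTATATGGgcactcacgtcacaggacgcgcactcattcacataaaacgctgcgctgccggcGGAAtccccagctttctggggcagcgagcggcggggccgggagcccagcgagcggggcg
Spred1: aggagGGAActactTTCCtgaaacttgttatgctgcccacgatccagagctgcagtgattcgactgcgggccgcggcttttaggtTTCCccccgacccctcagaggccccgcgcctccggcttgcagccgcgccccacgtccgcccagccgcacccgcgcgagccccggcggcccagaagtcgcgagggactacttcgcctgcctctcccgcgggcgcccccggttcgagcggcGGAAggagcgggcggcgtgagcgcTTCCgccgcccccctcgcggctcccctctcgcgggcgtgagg
Their positions are chr10:99262981-99263280, plus strand for Dusp6, chr19:53528895-53529194, plus strand for Dusp5 and chr2:117120821-117121120, plus strand for Spred1. Dusp6 held 6 GGAA matches, Dusp5 3 and Spred1 5, where the median of 32851 RefSeq promoters of the same length is 3 and 28.6% hold 5 or more. Over all these promoters 96.0% hold GGAA at least once, so its presence sets no gene apart. The Dusp5 promoter held 2 CArG boxes next to each other, of which 1.63% of promoters hold any and 0.0183% hold 2 or more; the search for this box was added after the sequence was seen. Promoters were matched for 7 of the 10 members, 8 in all with 2 for Etv5. Spry1 held 1 GGAA match, Spry2 5, Spred2 7, and Etv5 6 in one promoter and 0 in the other. None of the 8 held TGANTCA, the site of AP-1 (7.81% of all promoters), or TGACGTCA, the site of CREB and ATF factors (1.79%), on either strand. No other CArG box was found in the members. Such matches describe letters in a window and were not tested for binding.

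The libraries held between 4707063 and 13394301 estimated counts, and 1 count in a library corresponded to between 0.0733 and 0.258 CPM (the count as a share of the normalized library, scaled to the same size in every library). Grow 3 and Grow 4 were close to each other, though they differed by more than sampling noise: the median over genes of the chi-square statistic divided by its expectation was 1.94, against 4.66 or more for every other pair of Grow tumours. They were kept as 2 samples. In the labels 1 sample code stands for both Regress 2 and Normal 4. The 8 listed hepatocyte markers all had counts. Their summed level was 80139 CPM in Regress 1, 48142 and 48346 CPM in Grow 3 and Grow 4, 157346 to 228002 CPM in the other 7 tumours and 60120 to 93037 CPM in normal liver. Alb, the albumin gene, made up most of that sum in every sample but Normal 1, where it was 28650 of 60120 CPM. It stood at 50742 CPM in Regress 1, 26020 and 26481 CPM in Grow 3 and Grow 4, 111445 to 187356 CPM in the other 7 tumours and 28650 to 53813 CPM in normal liver. Gene by gene the 8 markers had a median log2 fold change of -0.39 in tumours by edgeR, and 1 was called, Tat, an enzyme of tyrosine breakdown, which was lower (-1.52 ± 0.36, adjusted p = 0.0408). These are whole tissue samples, in which fewer cells of a type and less RNA per cell cannot be told apart.

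Among the 10 genes, Dusp6 had the highest level per transcript length in all groups, at 31.0, 33.9 and 7.05 CPM per kb as the means of Regress, Grow and Normal. In normal liver the next were Spred2 at 1.29, Spred1 at 1.25 and Spry1 at 1.03 CPM per kb, and the lowest were Etv4 at 0.0316 and Dusp5 at 0.0151 CPM per kb. In Regress tumours Dusp5 averaged 2.51 CPM per kb, near Spred1 at 2.50 and Spred2 at 2.63 CPM per kb, but this mean rests largely on Regress 4. The level of Dusp6 per kb was 12.4 times that of Spred1 in Regress, 11.4 times in Grow and 5.62 times in Normal. These lengths are of the GENCODE transcripts linked to each RefSeq transcript, as the median where several were linked.

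**Figure D1:**
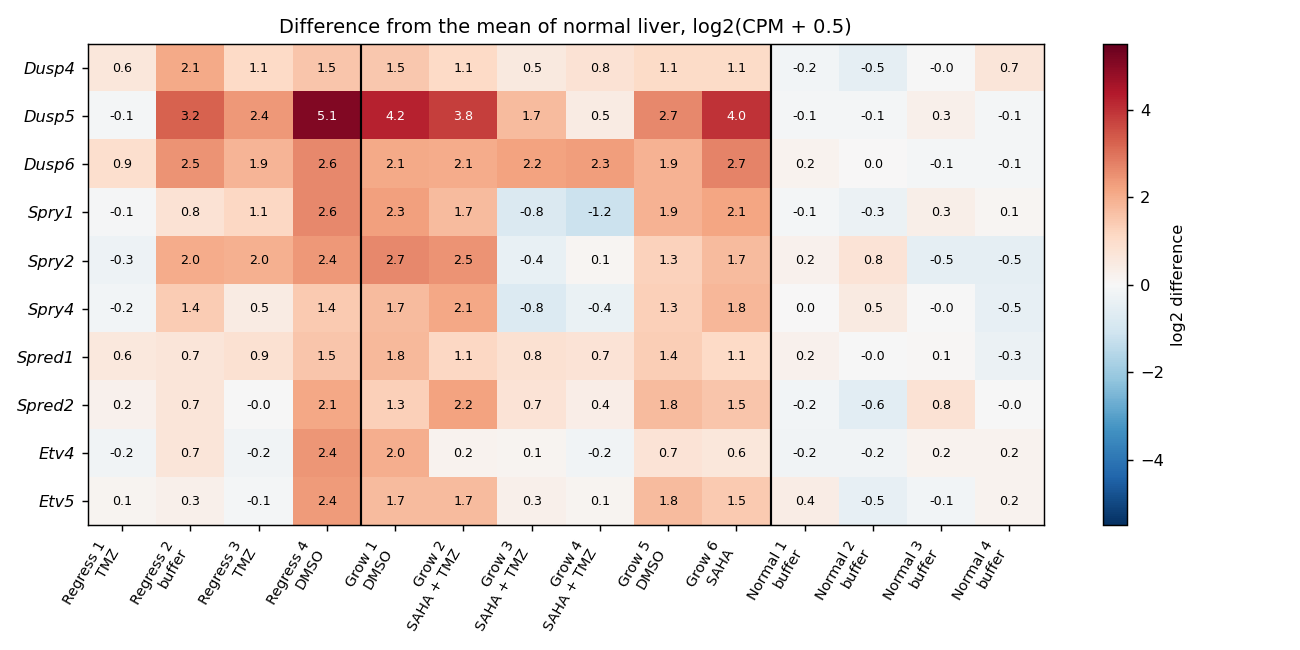
Each cell gives a sample's log2(CPM + 0.5) minus the mean of the 4 normal livers, for the 10 genes (down) in Regress, Grow and Normal samples (across). Dusp6 and Spred1 lie above the normal livers in all 10 tumours, while the Sprouty genes are near or below the normal mean in Regress 1, Grow 3 and Grow 4.

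Of the phosphatases, Dusp6 rose in tumours, and also in Regress and in Grow when each was set against normal liver. It was above every normal liver in all 10 tumours. Dusp6 stood at 37.4, 112, 74.2 and 123 CPM in Regress 1 to 4, between 75.2 and 132 CPM with a median of 89.5 CPM in the 6 Grow tumours, and at 22.3, 20.1, 18.1 and 18.3 CPM in Normal 1 to 4. Regress 1 was the lowest tumour and still exceeded the highest normal liver, and the 4 normal livers lay close together. Dusp6 averaged 86.8 ± 39.1 CPM, 94.8 ± 20.1 CPM and 19.7 ± 1.95 CPM (SD, n = 4, 6 and 4) in Regress, Grow and Normal. In edgeR's quasi-likelihood test the log2 fold change ± standard error was 2.20 ± 0.30, adjusted p = 0.0109 for tumours against normal liver, with Grow and Regress weighted equally. It was 2.14 ± 0.33, adjusted p = 0.0457 for Regress and 2.27 ± 0.31, adjusted p = 0.00874 for Grow. Dusp6 ranked at place 3 by p of 12300 features tested in tumours against normal liver. The call was lost in 3 of 25 alternatives in tumours (adjusted p up to 0.173) and in 17 of 25 in Regress (up to 0.333).

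Dusp5, whose promoter holds the CArG boxes shown above, was at or near 0 in normal liver and had counts in 9 of 10 tumours. It stood at 0, 4.55, 2.32 and 17.9 CPM in Regress 1 to 4, between 0.236 and 9.60 CPM with a median of 4.91 CPM in the 6 Grow tumours, and at 0, 0, 0.149 and 0 CPM in Normal 1 to 4. The normal livers held 1 count in all, in Normal 3, and a count of 0 in the other 3 allows levels of up to 0.527, 0.526 and 0.436 CPM in Normal 1, 2 and 4 (the level of 3 counts). Regress 1, at 0 as well, overlapped the normal livers. All 6 Grow tumours had higher listed levels than the normal livers, but Grow 4, at 0.236 CPM from 2 counts, lies under the levels that a count of 0 allows there. The 10 tumours held 415 counts together, a ratio of levels of 144 to normal liver with an exact 95% interval of 25.8 to 5715 that covers counting error only. In the edgeR test Dusp5 was called higher in tumours (log2 fold change 6.58 ± 1.60, adjusted p = 0.0465). That call was lost in 16 of 25 alternatives, with adjusted p-values between 0.000107 (DESeq2) and 0.468 (limma-voom) over all of them. This fitted value depends on the prior count, since the normal livers are at or near 0, and Dusp5 passed the filter on low counts only through the tumours, so its call is a description. For Regress and Grow alone the adjusted p was 0.0753 and 0.0601, and it was not called.

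Dusp4 was low throughout. It stood at 0.985, 3.56, 1.55 and 2.26 CPM in Regress 1 to 4, between 0.884 and 2.20 CPM with a median of 1.48 CPM in the 6 Grow tumours, and at 0.351, 0.175, 0.448 and 1.02 CPM in Normal 1 to 4. Regress 1 and Grow 3 lay below Normal 4, the highest normal liver, and the other 8 tumours above it. The log2 fold change in tumours against normal liver was 1.75 ± 0.50, adjusted p = 0.0742 by edgeR, and Dusp4 was not called. Its counts were few, 123 over the 10 tumours and 13 over the 4 normal livers, and like Dusp5 it passed the filter only through tumours.

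**Figure D2:**
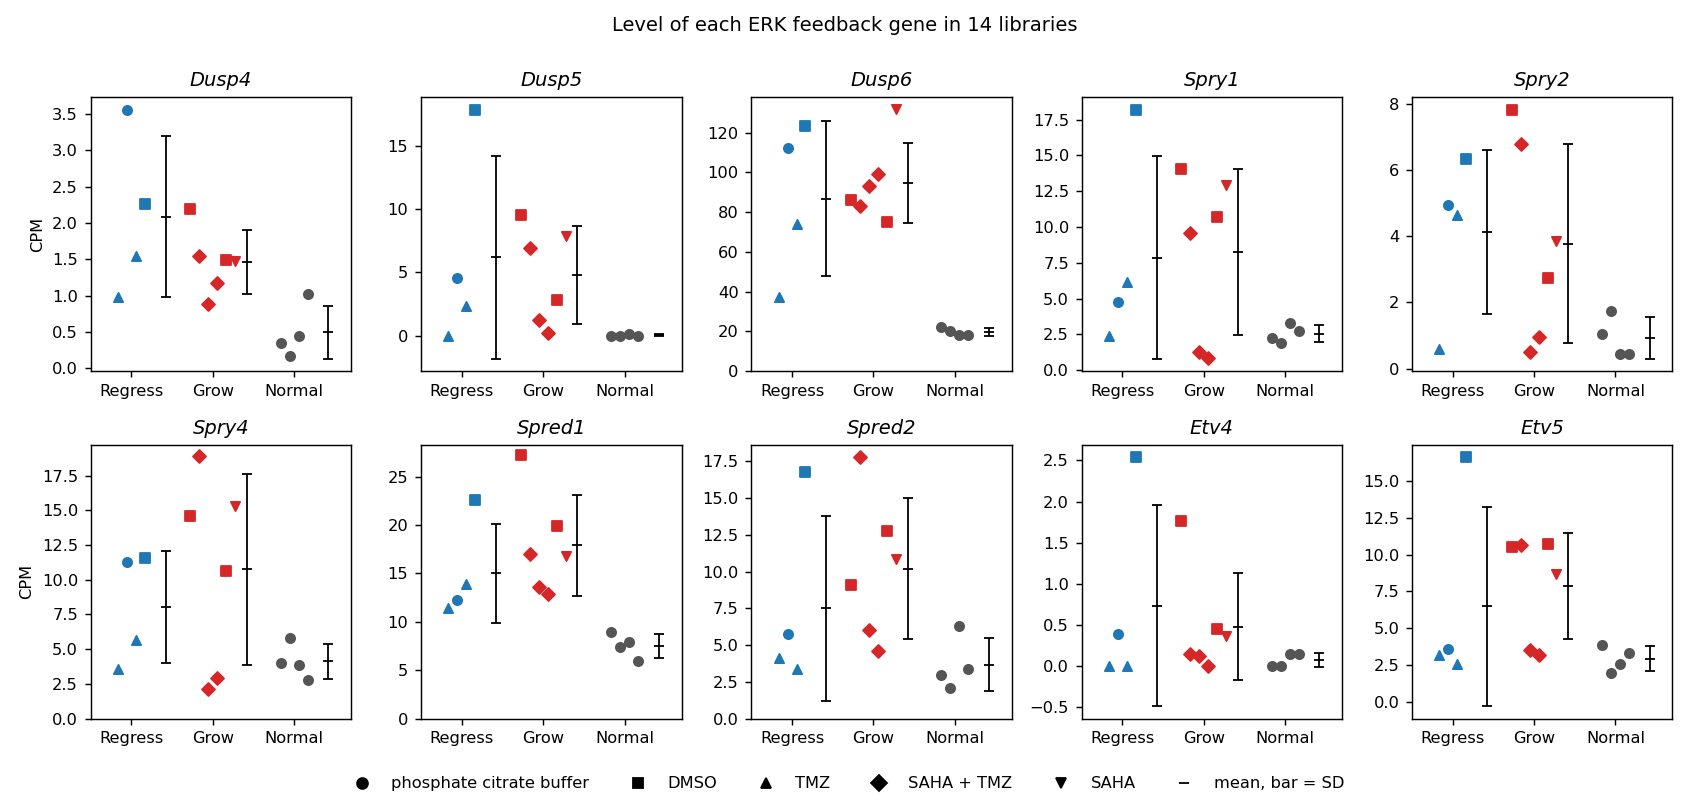
Levels in CPM (linear axis, 1 panel a gene) in Regress, Grow and Normal samples, with each point a sample, its shape the treatment, and bars at the mean ± SD (n = 4, 6 and 4), which pass below 0 where the SD exceeds the mean. For Dusp6 the tumours sit between 37.4 and 132 CPM, above the normal livers at 18.1 to 22.3 CPM, while every gene but Dusp6 and Spred1 has at least 1 tumour within or below the normal range.

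The 3 Sprouty genes varied widely among the tumours. None of the 3 was called in tumours against normal liver, in Regress or in Grow, and in each comparison Spry1, Spry2 and Spry4 had positive log2 fold changes. Spry1 stood at 2.36, 4.74, 6.18 and 18.2 CPM in Regress 1 to 4, between 0.825 and 14.1 CPM with a median of 10.2 CPM in the 6 Grow tumours, and at 2.28, 1.93, 3.29 and 2.76 CPM in Normal 1 to 4. Regress 1 lay within the range of the normal livers, Grow 3 and Grow 4 lay below it, and the other 7 tumours lay above it. Spry1 had a log2 fold change of 1.65 ± 0.72, adjusted p = 0.24 in tumours by edgeR.

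Spry2 stood at 0.591, 4.94, 4.64 and 6.35 CPM in Regress 1 to 4, between 0.505 and 7.84 CPM with a median of 3.31 CPM in the 6 Grow tumours, and at 1.05, 1.75, 0.448 and 0.436 CPM in Normal 1 to 4. Regress 1, Grow 3 and Grow 4 again lay within the normal range, and the other 7 tumours above it. Spry4 stood at 3.55, 11.3, 5.67 and 11.6 CPM in Regress 1 to 4, between 2.15 and 18.9 CPM with a median of 12.6 CPM in the 6 Grow tumours, and at 4.04, 5.78, 3.88 and 2.76 CPM in Normal 1 to 4. Grow 3 lay below the normal range, Regress 1, Regress 3 and Grow 4 lay within it, and the other 6 tumours were above it. For Spry2 the log2 fold change in tumours was 2.11 ± 0.78, adjusted p = 0.158, and for Spry4 1.18 ± 0.54, adjusted p = 0.269.

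Summed, Spry1, Spry2 and Spry4 came to 6.50, 21.0, 16.5 and 36.1 CPM in Regress 1 to 4, to 36.5, 35.3, 3.91, 4.72, 24.1 and 32.1 CPM in Grow 1 to 6, and to 7.37, 9.46, 7.62 and 5.96 CPM in Normal 1 to 4. Dusp6 did not share the low values of Grow 3 and Grow 4, where it stood at 93.0 and 99.3 CPM, near the middle of the tumours. The Sprouty sum was 4.21% and 4.75% of Dusp6 there, against 17.4% to 42.5% in the other 8 tumours and 32.5% to 47.0% in normal liver. Grow 2, Grow 3 and Grow 4 had SAHA with TMZ. Grow 3 and Grow 4, close to each other over all genes, are not shown by the labels to be independent. Without them, a setting chosen after seeing the data, Spry1 and Spry4 were called higher in tumours (adjusted p = 0.0353 and 0.041 by edgeR, where 3.37% of all features were called higher) and Spry2 was not.

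Some markers of other cells moved with these values and others did not. The 8 listed markers of cholangiocytes and ductular cells summed to 36.6 CPM in Regress 1, 41.7 and 39.5 in Grow 3 and Grow 4 and 77.1 in Grow 2, against 261 to 624 CPM in the other 6 tumours and 24.7 to 39.3 CPM in normal liver. That sum is carried by Tspan8, at 2.36 CPM in Regress 1, 16.2 and 15.3 CPM in Grow 3 and Grow 4, 32.2 CPM in Grow 2, 181 to 499 CPM in the other 6 tumours and 0.897 to 5.24 CPM in normal liver. Among Grow tumours the ductular keratin Krt19 and the epithelial adhesion gene Epcam ran the other way. Krt19 stood at 3.66 and 3.3 CPM in Grow 3 and Grow 4, against 0.310 to 1.48 CPM in the other 4 Grow tumours, and Epcam at 4.17 and 3.89 CPM, against 0.155 to 1.90 CPM. Regress 1 to 4 had Krt19 at 0.197, 0.395, 34.8 and 2.54 CPM and Epcam at 0.985, 0.198, 56.4 and 4.37 CPM. Sox9 stood at 0 and 0.236 CPM in Grow 3 and Grow 4, against 9.59 to 15.3 CPM in the other 4 Grow tumours. In Regress 1 to 4 Sox9 was at 5.32, 3.56, 5.15 and 23.7 CPM. All 8 had counts in some library, though Sox9 was at 0 in Grow 3 and Cftr at 0 in 6 libraries. The hepatocyte sums given above were also lowest among tumours in Regress 1, Grow 3 and Grow 4. Grow 2, with a low ductular sum, had Spry4 at 18.9 CPM, the highest of all samples. The part of these cell types in the Sprouty levels was not tested.

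**Figure D3:**
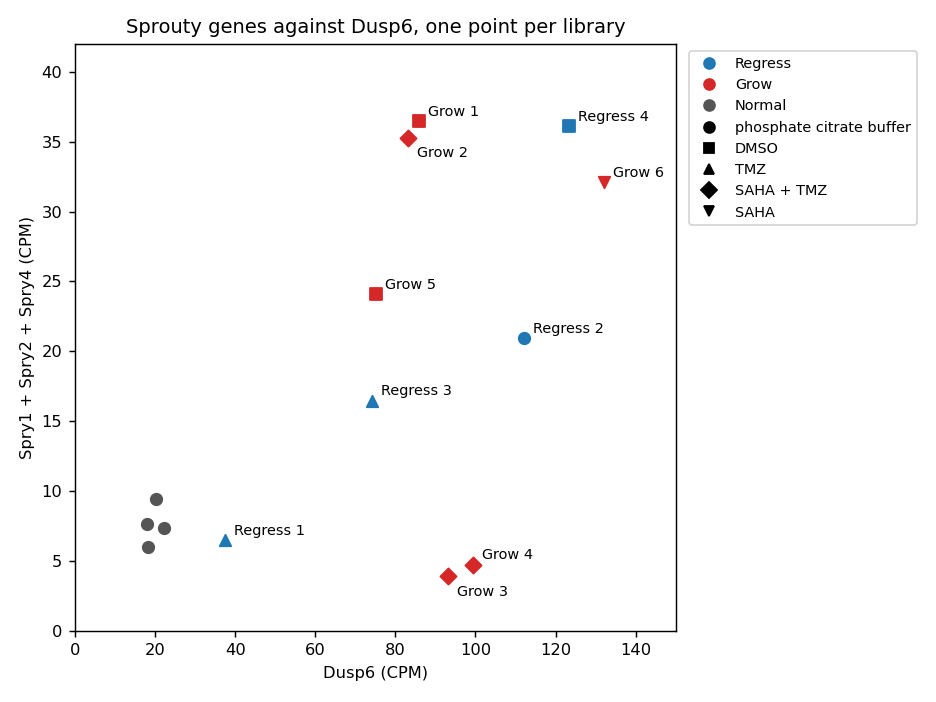
Sprouty sum (Spry1, Spry2 and Spry4, CPM, vertical) against Dusp6 (CPM, horizontal) in the 14 samples, coloured by group, with the treatment as the shape. Grow 3 and Grow 4 lie at 3.91 and 4.72 CPM of Sprouty with Dusp6 at tumour levels, below every normal liver on the vertical axis.

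Of the Spred genes, Spred1 rose in tumours and Spred2 was not called. Spred1 stood at 11.4, 12.3, 13.9 and 22.6 CPM in Regress 1 to 4, between 12.9 and 27.3 CPM with a median of 16.9 CPM in the 6 Grow tumours, and at 8.95, 7.36, 7.92 and 5.96 CPM in Normal 1 to 4. All 10 tumours lay above all 4 normal livers, and the lowest tumour, Regress 1, was again the one nearest to them. The log2 fold change was 1.12 ± 0.26, adjusted p = 0.0397 in tumours and 1.25 ± 0.27, adjusted p = 0.0384 in Grow by edgeR. In Regress it was 1.00 ± 0.29, adjusted p = 0.109, not called. The call in tumours was lost in 11 of 25 alternatives (adjusted p up to 0.256) and that in Grow in 11 of 25 (up to 0.347). Spred2 stood at 4.14, 5.73, 3.35 and 16.8 CPM in Regress 1 to 4, between 4.60 and 17.8 CPM with a median of 9.98 CPM in the 6 Grow tumours, and at 2.98, 2.10, 6.28 and 3.35 CPM in Normal 1 to 4. Here Normal 3 overlapped Regress 1, 2 and 3 and Grow 3 and Grow 4, and the other 5 tumours lay above all normal livers. Spred2 had a log2 fold change of 1.25 ± 0.48, adjusted p = 0.179 in tumours.

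Neither ETS factor was called in tumours against normal liver. Etv5 stood at 3.15, 3.56, 2.58 and 16.6 CPM in Regress 1 to 4, between 3.18 and 10.7 CPM with a median of 9.61 CPM in the 6 Grow tumours, and at 3.86, 1.93, 2.54 and 3.35 CPM in Normal 1 to 4. Grow 1, Grow 2, Grow 5, Grow 6 and Regress 4 lay above all normal livers, and the other 5 tumours within their range. The log2 fold change of Etv5 was 1.30 ± 0.54, adjusted p = 0.21 in tumours. Etv4 was too low to be tested: it stood at 0, 0.395, 0 and 2.54 CPM in Regress 1 to 4, between 0 and 1.76 CPM with a median of 0.262 CPM in the 6 Grow tumours, and at 0, 0, 0.149 and 0.145 CPM in Normal 1 to 4. Its counts were 52 over the 10 tumours and 2 over the normal livers, a ratio of levels of 9.04 (exact 95% interval 2.38 to 76.6, counting error only). Regress 4 and Grow 1, both given DMSO, held most of the tumour counts.

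Regress 4 was the tumour with the highest level of Dusp5, Spry1, Etv4 and Etv5. It also stood apart in markers of stellate cells and matrix, whose 11 genes summed to 1310 CPM, against 114 to 365 CPM in the other 9 tumours and 228 to 378 CPM in normal liver, and none of the 11 was at 0 in all libraries. Their part in those levels was not tested. At the other end, Regress 1 was among the 3 lowest tumours for all 10 members, Grow 4 for 9 and Grow 3 for 5. Regress 1 was above every normal liver for 2 of the members, Dusp6 and Spred1, and Grow 1, Grow 2, Grow 5, Grow 6 and Regress 4 for all 10.

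Counted together, 9 of the 10 members passed the filter. Dusp4, Dusp5 and Spry2 passed only through tumours, so they had to be higher there, and counts that hold them are descriptions. The other 6 passed in normal liver alone (at least 1.63 CPM before scaling in each of the 4). Of these 6, edgeR called 2 higher in tumours, Dusp6 and Spred1, and of the 9 it called 3, with Dusp5, where it called 1.59% of all features higher. The 6 had a median log2 fold change of 1.27, against 0.01 over all features tested, of which 49.1% were below 0. In Grow it called 2 higher (Dusp6 and Spred1), against 1.12% of features. In Regress it called Dusp6 alone, against 0.0244% of features, which is 3 features. All members, Etv4 included, counted by overlap gave 2 of 10 above every normal liver in all tumours (background 1.09%) and in Regress (2.72%), and 3 of 10 in Grow (5.27%), with Dusp5 as limited above. These comparisons share the 4 normal livers. The count in tumours was 0 without Normal 3, where Dusp6 had an adjusted p of 0.0528, edgeR called no feature at all and 5 members had an unadjusted p under 0.05. It was 1 without Normal 1, Normal 2, Normal 4, Grow 5, Grow 6 or Regress 3. Calls over all features fell too, from 195 called higher with all 14 samples. They fell to 3, 25 and 6 without Normal 1, Normal 2 and Normal 4. Without Grow 5, Grow 6 and Regress 3 they were 78, 63 and 80. In Grow the count of members was 0 without Normal 1 or Normal 4 (7 and 6 members at an unadjusted p under 0.05). It was 1 without Normal 2, Normal 3, Grow 1, Grow 5 or Grow 6. In these settings edgeR called 3 to 41 of all features higher in Grow, against 138 with all 14 samples. In Regress the count of members was 3 without Regress 1 (3.77% of features called higher) and 1 without Grow 6 or Regress 4. It was 0 without any other single library (4 to 7 members at an unadjusted p under 0.05). Without both Grow 3 and Grow 4 edgeR called 5 members in tumours, 5 in Grow and 2 in Regress, where it called 3.37%, 2.87% and 0.887% of all features higher. Without Regress 1 as well it called 7, 6 and 6, against 6.6%, 5.11% and 5.21% of features. Both settings were chosen after seeing the data and leave out tumours with low values. Among the markers of other cells, edgeR called the endothelial genes Cd34 and Lyve1, Tagln of stellate and contractile cells and Tspan8 higher in tumours. Cd34, Lyve1 and Tspan8 would not have passed the filter in normal liver alone, so their calls are descriptions. The part of these markers in the members' levels was not tested.

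**Figure D4:**
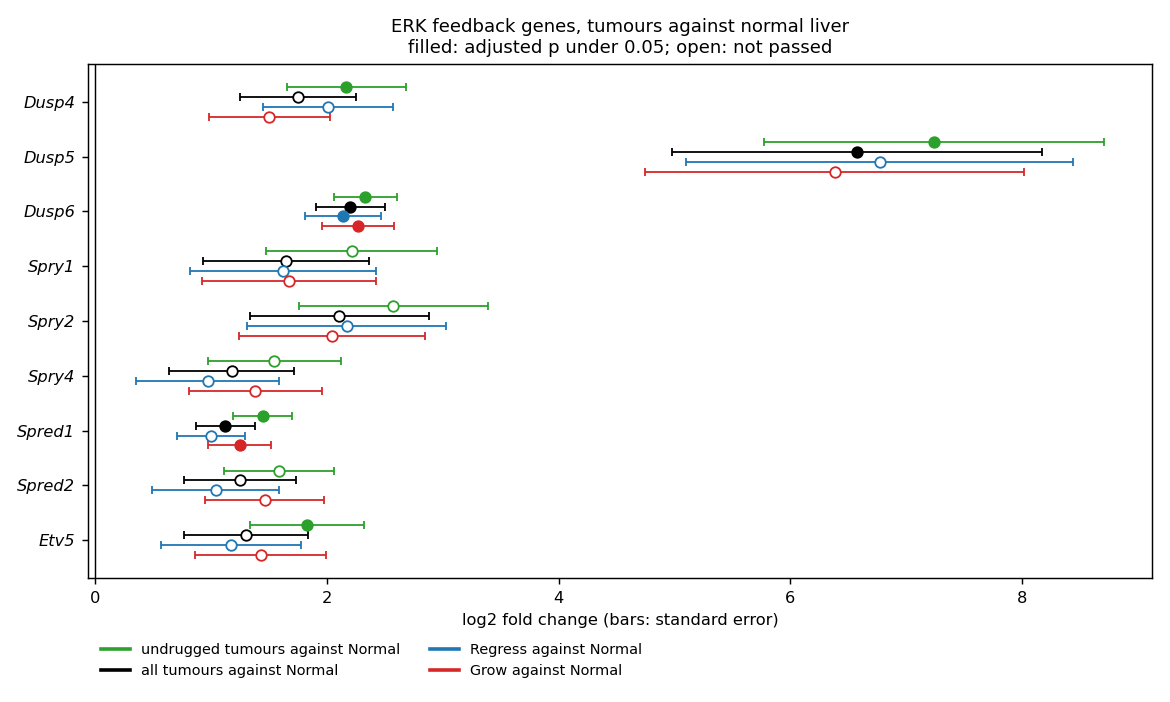
Log2 fold changes (horizontal, bars: standard error) of the 9 tested members against normal liver, for the comparisons named in the legend; filled points passed an adjusted p of 0.05. All points lie to the right of 0, and Dusp6 is filled throughout.

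Among tumours given no drug, edgeR called more members and more features. In Regress 2, Regress 4, Grow 1 and Grow 5, set against the normal livers in a fit with drugged Grow and Regress tumours as groups of their own, edgeR called 5 of 9 tested members higher: Dusp6 (2.33 ± 0.27, adjusted p = 0.00329), Spred1 (1.44 ± 0.26, adjusted p = 0.00721), Dusp5 (7.24 ± 1.47, adjusted p = 0.0117), Dusp4 (2.17 ± 0.52, adjusted p = 0.0212) and Etv5 (1.83 ± 0.49, adjusted p = 0.0351), as log2 fold changes. In this comparison 5.28% of all features were called higher. Dusp4 and Dusp5 passed the filter only through tumours, and of the 6 members that passed in normal liver alone 3 were called. The call of Dusp4 was lost in 4 of the 22 alternatives that tested it (adjusted p up to 0.114), and that of Etv5 in 9 of 25 (up to 0.26). The other 4 had adjusted p-values between 0.054 (Spred2) and 0.121 (Spry4), with positive log2 fold changes. By overlap, 8 of 10 members were above every normal liver in all 4 tumours, all but Spred2 and Etv5, where 9.04% of the tested features were. Of these members, Dusp6, Spry1, Spry4 and Spred1 had passed the filter in normal liver alone. Dusp4, Dusp5 and Spry2 had passed only through tumours and Etv4 had not passed, so for them the overlap is a description. For Etv4 the lower 2, at 0.395 and 0.457 CPM, lie under the 0.527 CPM that a count of 0 allows in Normal 1. The Sprouty sum was 21.0, 36.1, 36.5 and 24.1 CPM in these 4 tumours. Regress 2 was the lowest of them for Spry1 (4.74 CPM), Spred1, Spred2, Etv4 and Etv5. The normal livers had buffer, as did Regress 2, while the other 3 had DMSO, so solvent and tumour cannot be fully told apart. Markers of other cells were called in the same comparison. Of 11 stellate and matrix genes 5 were higher (Acta2, Col1a1, Col1a2, Col3a1 and Tagln) and Lrat was lower, while the sum of the 11 was below every normal liver in Regress 2, Grow 1 and Grow 5. Of 9 genes of recruited macrophages Gpnmb, Trem2 and Spp1 were higher, of 12 Kupffer cell genes Folr2, Timd4 and Vsig4 were lower, and of 10 endothelial genes Cd34, Lyve1 and Pecam1 were higher. Tspan8 and Spp1, of 6 tested ductular genes, were higher and the erythroid Alas2 was lower. Acta2, Col1a1, Gpnmb, Trem2, Cd34, Lyve1 and Tspan8 would not have passed the filter in normal liver alone, so their calls are descriptions. The part of these cells in the members' levels was not tested. The count was 3 without Normal 1, Normal 2 or Grow 1, and 9 without Grow 3 and Grow 4 (6.47% of all features called higher). Grow 3 and Grow 4 are in neither group compared, but they enter through the filter, the scaling and the estimate of spread. Dusp6 was called in all 25 alternatives, with log2 fold changes of 2.21 to 2.46 and adjusted p-values up to 0.0377.

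Regress and Grow tumours were not shown to differ in any member. SAHA was given to Grow tumours only, and the dose of TMZ differed between the groups. This fit held no drug term, so drug and group cannot be fully told apart here. No member was called by edgeR, DESeq2 or limma-voom. With edgeR none had an unadjusted p under 0.05 (10.0% of all features did), and the lowest adjusted p was 0.617 (Dusp4). In either direction edgeR and limma-voom called 0.0% of all features, and DESeq2 called 0.236% higher and 0.0163% lower. The log2 fold changes of Regress against Grow ran between -0.42 (Spred2) and 0.51 (Dusp4). For Dusp6 it was -0.13 ± 0.28, and for Spry1 -0.05 ± 0.69.

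No member passed the test for TMZ, given to Regress 1 and Regress 3 at 31 mg/kg and to Grow 2, Grow 3 and Grow 4 at 22 mg/kg with SAHA. With TMZ as a term beside the group, all 9 tested members had log2 fold changes below 0 (52.5% of all features did), and the 6 that passed the filter in normal liver alone had a median of -0.85 (-0.03 over all features). edgeR called 0 members, as did DESeq2 and limma-voom. Over all features edgeR called 0.0%, DESeq2 2.22% higher and 1.55% lower, and limma-voom 0.0163% higher and 0.0% lower. At an unadjusted p under 0.05 there were 4, all lower, where 7.54% of all features were lower at that level. These were Spry1 (-1.61 ± 0.58, adjusted p = 0.246), Etv5 (-1.18 ± 0.45, adjusted p = 0.265), Dusp5 (-2.01 ± 0.86, adjusted p = 0.323) and Spred1 (-0.52 ± 0.22, adjusted p = 0.318). Etv4, not tested, stood at 0, 0, 0.155, 0.126 and 0 CPM in these 5 tumours and between 0.369 and 2.54 CPM in the 5 without TMZ; the listed values did not overlap, which held for 0.967% of features. They rest on 0 or 1 count in each TMZ tumour, and a count of 0 allows up to 0.591 CPM in Regress 1 and 0.773 CPM in Regress 3, so at this depth the groups were not shown to be apart. Spry1 stood at 2.36, 6.18, 9.60, 1.26 and 0.825 CPM in the TMZ tumours, in the same order, and at 4.74, 18.2, 14.1, 10.7 and 12.9 CPM in Regress 2, Regress 4, Grow 1, Grow 5 and Grow 6, so Regress 3 and Grow 2 overlapped the tumours without TMZ. Regress 1, Grow 3 and Grow 4, the tumours with the lowest hepatocyte sums, are 3 of the 5 TMZ tumours, and the part of those cells was not tested. Without Grow 2 the call changed: Dusp5, Spry1, Spry4 and Etv5 were called lower (adjusted p = 0.0344, 0.023, 0.0102 and 0.0301 by edgeR), where 3.61% of all features were called lower, whereas without Grow 3 and Grow 4 none was and 1 had an unadjusted p under 0.05.

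Grow tumours with SAHA (Grow 2, 3, 4 and 6) against Grow tumours without it (Grow 1 and 5) gave no called member with edgeR, DESeq2 or limma-voom, and none at an unadjusted p under 0.05 with edgeR, where 2.64% of all features had one. Grow 2, 3 and 4 also had TMZ, for which this fit held no term, so SAHA and TMZ cannot be told apart here. Of the 9 members 8 had log2 fold changes below 0 (49.4% of all features did), with a median of -0.63, and every adjusted p was 1.0 by edgeR. Over all features edgeR and limma-voom called 0.0%, and DESeq2 called 0.407% higher and 0.0163% lower. Dusp6 was the exception in sign (0.34 ± 0.39). Dusp6 stood at 83.1, 93.0, 99.3 and 132 CPM with SAHA and at 85.9 and 75.2 CPM without. Spry1 stood at 9.60, 1.26, 0.825 and 12.9 CPM with SAHA and at 14.1 and 10.7 CPM without, so Grow 2 and Grow 6 lay beside the undrugged tumours.

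**Figure D5:**
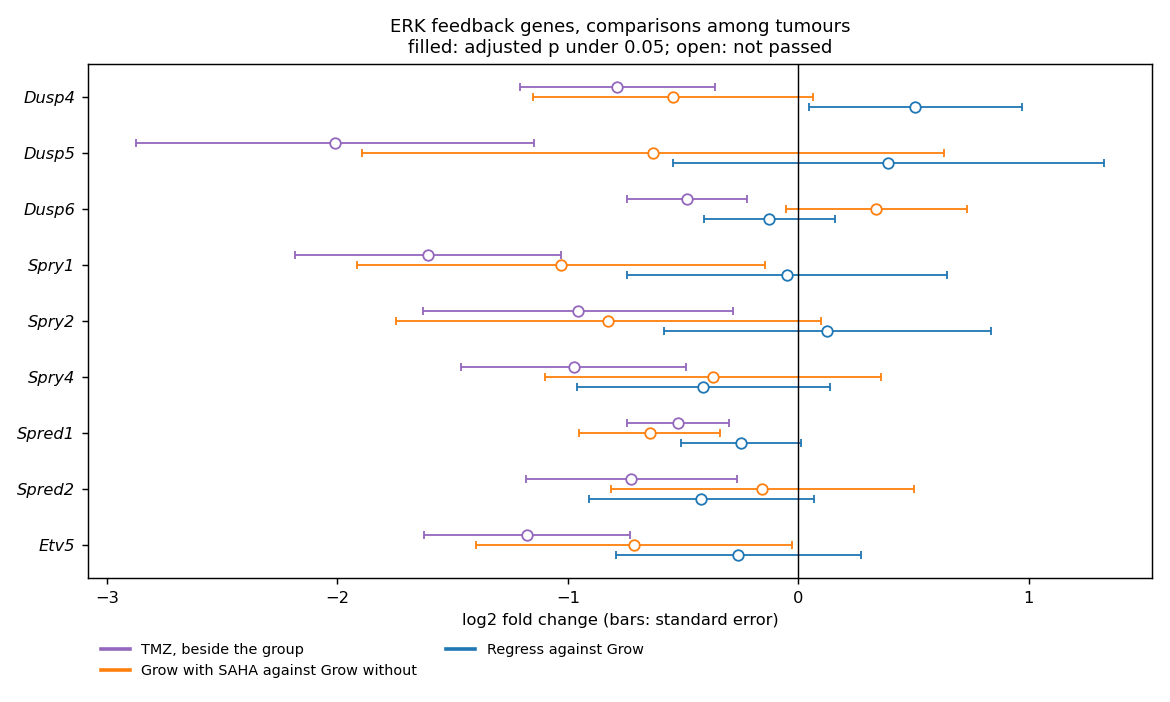
Log2 fold changes (horizontal, bars: standard error) of the 9 tested members for TMZ, for Grow with SAHA against Grow without, and for Regress against Grow. All points are open, as none passed an adjusted p of 0.05, and the 9 TMZ points lie left of 0.

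Elsewhere in the pathway, edgeR called other outputs and no gene of the core. In tumours edgeR called 1.59% of all features higher. Of 13 tested other ERK outputs it called 3 higher: Ccnd1, the cell cycle cyclin D1 (3.02 ± 0.37, adjusted p = 0.0109), and the immediate early factors Egr1 (4.63 ± 0.94, adjusted p = 0.029) and Jun (1.66 ± 0.39, adjusted p = 0.0408). None of the 21 tested genes of the RAS to ERK core, which include Braf, was called in any of the 7 comparisons, nor was any of 6 other MAP kinase phosphatases or 14 other negative regulators of receptors and RAS in tumours against normal liver. At an unadjusted p under 0.05 the core had 0 to 3 genes a comparison, and in tumours the other phosphatases had 1 and the other regulators 5. DESeq2 called 1 core gene in undrugged tumours, 1 for TMZ and 2 of the other regulators in tumours, and limma-voom called none of these. Of 26 ligands and receptors 1 was higher by edgeR, the hepatic hormone Fgf21 (2.42 ± 0.53, adjusted p = 0.0348). In the Grow group 1 was lower, the hepatocyte growth factor Hgf (-1.53 ± 0.35, adjusted p = 0.0424), where 0.642% of all features were. Among 11 other ETS factors Elf3, an epithelial factor, rose (4.06 ± 0.94, adjusted p = 0.0397). In normal liver Elf3 stood at 0 to 0.527 CPM, and in Normal 2 Egr1 stood at 0.350 CPM and Fgf21 at 1.58 CPM. These genes would not have passed the filter in normal liver alone, so their calls are descriptions. So are the counts and medians that hold them. In tumours DESeq2 called 7 of the 13 outputs, 7 of the 26 ligands and receptors and 2 of the 11 ETS factors. It called 5.89% of all features higher and 2.68% lower. Limma-voom called 1, 0 and 0 of them, and 0.366% of all features higher and 0.667% lower. The medians of log2 fold change in tumours over the tested genes were 1.32 for the other outputs and -0.14 for the core.

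In the undrugged tumours edgeR called 5.28% of all features higher and 3.52% lower. It called 6 of 13 other outputs higher there, adding Fos (2.90 ± 0.67, adjusted p = 0.0196), Junb (1.69 ± 0.38, adjusted p = 0.0162) and the receptor Epha2 (1.74 ± 0.39, adjusted p = 0.0175). Dusp16, a phosphatase of JNK and p38 kinases, was higher at a log2 fold change of 1.00 ± 0.29, adjusted p = 0.0477, and so were the RAS inactivators Dab2ip (1.62 ± 0.39, adjusted p = 0.0226) and Rasal1 (5.19 ± 1.29, adjusted p = 0.0253) and the ETS factor Ets2 (1.56 ± 0.30, adjusted p = 0.00921). Of the ligands and receptors, Btc, Fgf21 and Mst1r were higher, and Fgf1 (-1.78 ± 0.26, adjusted p = 0.00515) and Igf1 (-1.93 ± 0.43, adjusted p = 0.0165) were lower. In normal liver Fos, Rasal1 and Mst1r reached at most 1.23, 0.351 and 1.23 CPM. Like Elf3, Egr1 and Fgf21, they would not have passed the filter there alone. Their calls, and the counts that hold them, are descriptions.

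The genes whose log2 CPM followed the members most closely over the 14 samples are given as a description. For the mean of the standardized members, the 5 highest Pearson correlations were those of Kctd3 (0.972), B4galt6 (0.969), Pygb (0.967), Prom2 (0.965) and Gpc6 (0.965). They were between 0.953 and 0.976 in the 10 tumours alone. For Dusp6 alone, 4 of the 5 highest were those of Ccnd1 (0.972), Ly6d (0.943), Igfbp1 (0.941) and Mtmr11 (0.940), and these 4 were between 0.795 and 0.862 in the tumours alone. The points share libraries, depth and the gap between tumours and normal liver.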

How the data were processed

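Libraries came from the Illumina TruSeq kit v2, as the labels' protocols say. Since strand is lost in it, a gene's reads are not separated from those of an antisense partner. Salmon 0.3.1, edgeR 3.14.0 and the build mm9 are named in the submitters' processing notes. The authors deposited estimated counts (expected counts) for 35230 transcripts, neither rounded nor normalized, per the file headers; 1 further column, which is empty, was not used. Identifiers were matched to symbols through RefSeq on GRCm38.p6 (26081) or GENCODE M21 (144 more), and the other 9005, which took 3.52% to 12.05% of a library, stayed separate features. Counts were summed per symbol and rounded, which gave 30436 features.

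Tests used the quasi-likelihood method of edgeR (edgeR 4.0.16, limma 3.58.1, R 4.3.3) with TMM, filterByExpr (12300 features kept, 9 of the 10 members) and robust dispersions over all 14 samples. Calls were made at a Benjamini-Hochberg adjusted p under 0.05 over all features. The biological coefficient of variation was 0.4843. A standard error is the size of the log2 fold change over the root of F. The prior count for log2 CPM was 2. The tumour effect weights Grow and Regress equally, TMZ was a term beside the group, and SAHA was tested within Grow. Neither the TMZ fit nor the SAHA fit held a term for the other drug. DESeq2 1.42.0, limma-voom, other scalings and filters, and leaving out libraries were alternatives. The scripts were tested on simulated data. The members and lists were chosen with earlier results of these data known. The genes named were all members in every comparison, the called genes of the other pathway lists, and the 5 most like the members' mean or Dusp6, of which 1 is not reported here. Exact intervals, at a confidence level of 95%, and the limit of 3 counts cover counting error only.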

Additional observations from a re-analysis of the deposited data

Results flagged for a closer look

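A sample was singled out where its gap to the nearest other sample of its group, divided by the group's range, passed Dixon's 95% critical value. Chance singles out about 1 in 20 groups, and 30 groups were examined (10 genes in 3 groups). Etv5 stood at 16.6 CPM in Regress 4, far above the other Regress tumours. Etv4 stood at 2.54 CPM in the same tumour, which also had the highest sum of stellate and matrix markers, whose part was not tested. Etv4 in Grow 1, at 1.76 CPM, was far above the other Grow tumours. Dusp5 in Normal 3, at 0.149 CPM, rests on 1 count beside 3 normal livers at 0.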

How the results depend on the processing

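Against 3, 2, 1, 0, 5, 0 and 0 members called in all tumours, Grow, Regress, Regress against Grow, undrugged tumours, TMZ and SAHA, other scaling (RLE) changed no count, and no alternative of the 25 called a member in Regress against Grow or for SAHA. No filter on low counts gave 1 in tumours, 1 in Grow and 0 in Regress (0.708%, 0.535% and 0.00964% of all features called higher). DESeq2 gave 5 in tumours, 4 in Regress and 8 undrugged, where it called 5.89%, 4.47% and 8.23% of all features higher. Limma-voom gave 1 in tumours, 1 in Grow, 0 in Regress and 3 undrugged, where it called 0.366%, 0.276%, 0.0% and 3.1% of all features higher. Removing the length trend gave 2 in Regress (1.21% of features); summing Grow 3 and Grow 4, or the largest transcript alone, gave 0 there. Without the pair under 1 sample code, Regress 2 and Normal 4, it was 0 in tumours, 1 in Grow and 0 in Regress. Leaving out 1 library gave 0 to 4 in tumours, 0 to 3 in Grow, 0 to 3 in Regress, 3 to 7 undrugged and 0 to 4 for TMZ. Chosen after seeing the data, leaving out Grow 3 and Grow 4 gave 5 in tumours, 5 in Grow, 2 in Regress and 9 undrugged, and Regress 1 with them 7, 6, 6 and 9. In undrugged tumours 6.47% and 6.66% of all features were called higher in these settings. The causes were not tested. Zero counts came with 3 to 7 members at an unadjusted p under 0.05 in the comparisons with normal liver.

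With the replicate number as a block, 0 members were called in tumours, Grow and Regress and 2 undrugged. In tumours and in Grow no feature at all was called with the block. Same-numbered samples do not deviate together (correlations of -0.522 to 0.197), so the numbers do not pair the samples.

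The reversed signs all belong to comparisons in which edgeR called no member with all 14 samples. In Regress against Grow, limma-voom gave -0.18 for Dusp5 and 0.28 for Spry1, the replicate block 0.35 for Spry1 and 0.055 for Spry4, and the length trend -0.024 for Spry2 and 0.13 for Spred1. Summing Grow 3 and Grow 4 gave -0.079 for Spry2, and leaving out Normal 4 and Regress 2 gave 0.12 for Spry1. Without Grow 3 and Grow 4 Dusp5 was at -0.11 and Spry2 at -0.32, and with Regress 1 left out too Dusp6 was at 0.14 and Spry2 at -0.00. Leaving out 1 library gave -1.07 to 0.80 for Dusp5, -0.35 to 0.12 for Dusp6, -0.90 to 0.25 for Spry1 and -0.17 to 0.54 for Spry2. For TMZ, Spry2 was at 0.15 without Grow 3, Grow 4 and Regress 1. For SAHA, Dusp6 was at -0.39 with the block and Spred2 at 0.046 with Grow 3 and Grow 4 summed. Without Grow 3 and Grow 4 Dusp5 was at 0.22, Spry4 at 0.42 and Spred2 at 0.39, and without Regress 1 too Dusp5 was at 0.25, Spry2 at 0.007, Spry4 at 0.44 and Spred2 at 0.39. Leaving out 1 library gave -1.25 to 0.53 for Dusp5, -1.62 to 0.16 for Spry2 and -0.61 to 0.11 for Spred2. Etv4 and Dusp5 rest on few counts, and depth limits what can be said of them.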
